A study of Mus musculus with 6 samples.

Results

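Collagen chain genes were taken as every gene of the deposited expression table whose symbol has the form Col, a number, the letter a and a number (Col1a1, for example), which gave 44 of 22838 genes. They were measured in RNA from the marrow of tibiae and femora of mice aged 3 weeks, of the strain 129/C57BL/6. The comparison is between 3 wild-type mice and 3 Cbx2-/- mice, and all 6 share the strain, age and tissue. Cbx2 encodes a chromobox protein of the Polycomb group, and the series title sets the question of what it does as bone-forming and fat cells arise in the growing long bones. Wild-type mice weighed 12.3 g on average and Cbx2-/- mice 4.0 g. The labels neither describe the allele nor give the sex of the animals. The values are in FPKM, which scales the fragments of a gene to its transcript length and to all mapped fragments of the library, so levels of different chains can be set side by side.

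Collagens are built from 3 chains wound into a triple helix, and a collagen type may use several different chains. Fibrillar collagens form the banded fibrils of bone, cartilage and skin, with type I as the main protein of bone matrix. Basement membrane collagens form sheets under endothelium and other cell layers, network collagens form lattices, beaded collagen VI forms microfilaments around cells, and the fibril-associated collagens with interrupted helices (FACIT) sit on the surface of fibrils. The remaining members span membranes, anchor basement membranes to fibrils or have the interrupted helices of types XV and XVIII.

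Collagen transcripts were much lower in Cbx2-/- marrow, and the fall ran through the fibrillar chains while both basement membrane chains stood higher. Of the 44 genes, 26 reached 1 FPKM in at least 1 library and 18 did not, and the latter are treated as not expressed. A gene was tested where 3 or more of the 6 libraries had 1 FPKM or more, which held for 25 collagen genes among 12006 genes. By limma on log2(FPKM + 1), 16 of the 25 were lower in Cbx2-/- marrow at a Benjamini-Hochberg adjusted p under 0.05, or 64%, beside 8.31% of all tested genes. None was higher past that threshold in the same limma test, beside 8.8% of all tested genes. In 17 of the 25, or 68%, all Cbx2-/- values lay below all wild-type values, beside 18.2% of all tested genes, and in 2 they all lay above, beside 21.4%. The other 6 overlapped between the genotypes. The median difference over the 25 genes was -1.27 on the log2 scale, beside 0.0159 over all tested genes, and 22 of the 25 differences were negative. Genes of low value had to reach 1 FPKM to be tested, so these counts describe the tested chains and not all 44. Col24a1, counted among the 16, met this filter through the wild-type libraries alone.

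**Figure D1:**
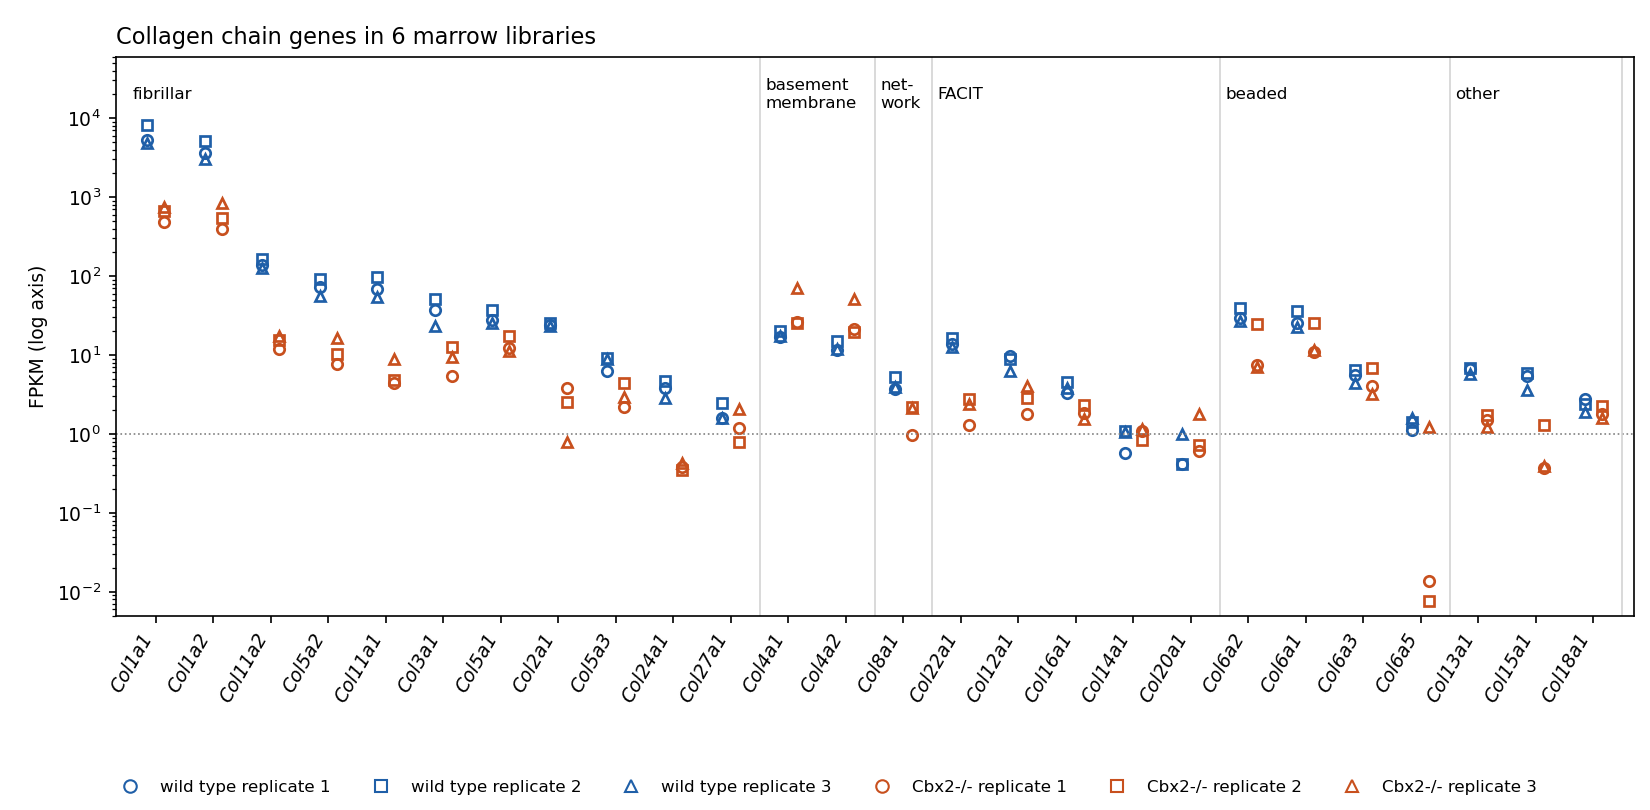
FPKM on a log axis for the 26 collagen chain genes that reached 1 FPKM, grouped by class, with 1 symbol per library (blue wild type, orange Cbx2-/-; circle, square and triangle for replicates 1, 2 and 3; dotted line at 1 FPKM). The orange symbols of Col1a1, at 489 to 740.0, sit below the blue ones at 4784 to 8233, while those of Col4a1 and Col4a2 sit above the blue ones.

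Summed FPKM ranged from 599601 to 741192, and 16140 to 16574 genes were above 0. Haemoglobin genes took 7.02% to 20.5% of the summed FPKM. Markers of skeletal muscle, 13 genes of contractile fibres, summed to 477 and 532 FPKM in Cbx2-/- replicates 1 and 2 and to 15.1 to 37.6 in the other libraries. Xist, which marks an inactive X chromosome, was at 0.0151 and 0.462 FPKM in replicate 1 of either genotype and at 11.5 to 24.5 in the other 4 libraries. With this pattern as a covariate, 16 collagen genes were again lower by limma, beside 6.61% of all tested genes. Cbx2 itself stood at 2.90, 3.83 and 2.75 FPKM in wild-type and at 2.11, 1.87 and 1.88 in Cbx2-/- marrow, a difference of -0.49 ± 0.15 (SE) with a limma adjusted p of 0.0558. The labels do not say which part of the gene the allele removes, so this value does not check them. In bulk marrow, fewer cells of a type and less RNA per cell cannot be told apart. With Cbx2-/- replicates 1 and 2 left out, 19 of the 25 collagen genes were lower by limma, with none of the 16 lost, and 2 were higher, Col4a1 and Col4a2. All tested genes were then called more often too, 22.6% lower and 17% higher, so 2 of 25 is no more than that share. The remaining Cbx2-/- library is then assumed to vary as the wild-type libraries do.

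Type I collagen carried most of the collagen signal. Col1a1, which encodes the α1 chain of type I collagen (chr11:94936224-94953042, mm10, plus strand), stood at 5238, 8233 and 4784 FPKM in the wild-type libraries. In the Cbx2-/- libraries it stood at 489, 672 and 740.0 FPKM, 9.6-fold lower on the means of 6085 ± 1874 and 634 ± 129.9 (SD, n = 3). The genotypes lay far apart, and the difference was -3.24 ± 0.30 (SE) on the log2 scale with a limma adjusted p of 0.000898. Among all 22838 genes, Col1a1 ranked 9, 6 and 10 from the top in wild-type marrow and 175, 145 and 105 in Cbx2-/- marrow.

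Its partner Col1a2 (chr6:4504814-4541544, plus strand) encodes the α2 chain, of which the common type I molecule holds a single copy. Its levels were 3600.2, 5157 and 3003 FPKM in wild-type and 390.3, 538 and 846 in Cbx2-/- marrow. The fall was 6.63-fold, or -2.76 ± 0.35 (SE) in log2, with a limma adjusted p of 0.00272, and no libraries overlapped. Its ranks went from 16, 8 and 25 to 220, 175 and 92. Both type I chains were highest in wild-type replicate 2, and among the Cbx2-/- libraries in replicate 3.

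The chains of types V and XI, which join type I or type II fibrils and limit their width, all fell, by unequal amounts. Col11a1 (chr3:114030540-114220718, plus strand) had the largest log2 difference of the 25 genes. It stood at 69.1, 97.8 and 53.6 FPKM in wild-type and 4.37, 4.86 and 8.95 in Cbx2-/- marrow, 12.1-fold lower, at -3.41 ± 0.29 (SE) and a limma adjusted p of 0.000652. Col11a2 (chr17:34039437-34066685, plus strand) stood at 139, 166 and 125 FPKM against 11.9, 15.3 and 17.2. It was 9.68-fold lower, at -3.20 ± 0.19 (SE), with the lowest adjusted p of the 25 genes (limma, 0.000166). In wild-type marrow it was the third most abundant collagen chain by FPKM, behind only Col1a1 and Col1a2. The highest Cbx2-/- value of either type XI chain was several times below the lowest wild-type value.

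Col5a2 (chr1:45374321-45503282, minus strand), the α2 chain of type V, stood at 73.2, 92.6 and 56.3 FPKM in wild-type and 7.75, 10.4 and 16.2 in Cbx2-/- marrow. It fell 6.48-fold, at -2.62 ± 0.28 (SE), with a limma adjusted p of 0.00145. Col5a1, the α1 chain that Col5a2 pairs with, had a smaller difference: 28.1, 37.4 and 25.1 FPKM against 12.1, 17.6 and 11.3, or 2.21-fold, at -1.10 ± 0.22 (SE) and a limma adjusted p of 0.013. Col5a3, the α3 chain, was at 6.23, 9.07 and 8.80 FPKM against 2.20, 4.43 and 2.90, or 2.53-fold lower, at -1.13 ± 0.22 (SE) and a limma adjusted p of 0.0131. All 3 type V chains separated the genotypes without overlap. The call on Col5a1 was lost in limma without wild-type replicate 1 (adjusted p = 0.0513), wild-type replicate 2 (0.0575) or Cbx2-/- replicate 1 (0.052). That on Col5a3 was lost without wild-type replicate 2 (0.0625) or 3 (0.0636).

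Col3a1, which forms thin fibrils in marrow stroma and vessel walls, lies 24614 bases from Col5a2 on chromosome 1 (chr1:45311538-45349706, plus strand). Its levels were 36.9, 51.5 and 23.6 FPKM in wild-type and 5.35, 12.7 and 9.32 in Cbx2-/- marrow. The fall was 4.1-fold, at -1.92 ± 0.34 (SE), with a limma adjusted p of 0.00942. Wild-type replicate 3 was the lowest of its group but still above all Cbx2-/- libraries.

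Col2a1, the chain of the main cartilage collagen (chr15:97975602-98004695, minus strand), was nearly equal in the wild-type libraries at 24.2, 25.2 and 23.1 FPKM. In Cbx2-/- marrow it stood at 3.77, 2.57 and 0.784 FPKM, 10.2-fold lower, at -3.01 ± 0.32 (SE) with a limma adjusted p of 0.00147. The type IX chains of cartilage were near the floor in both genotypes, unlike the type XI chains above: Col9a1, Col9a2 and Col9a3 reached at most 0.184, 0.551 and 0.505 FPKM. Col10a1, the chain of hypertrophic cartilage, was at 0.649, 0.383 and 0.673 FPKM in wild-type and 0.141, 0.0467 and 0.0234 in Cbx2-/- marrow, under the level for testing. Of 12 chondrocyte markers, Ucma was at 0 in all libraries, and Acan and Sox9, the main cartilage proteoglycan and the cartilage transcription factor, reached at most 0.432 and 0.269 FPKM. Acan was at 0.339, 0.432 and 0.136 FPKM in wild-type and 0.0272, 0.0623 and 0.0104 in Cbx2-/- marrow. Sox9 was at 0.26, 0.197 and 0.269 against 0.101, 0.0405 and 0.106, so neither overlapped, though both lay under the level for testing. The 12 summed to 6.54 to 7.6 FPKM in wild-type and 5.66 to 6.75 in Cbx2-/- marrow. Prg4, named after its values were seen, took much of this sum and went the other way, at 2.41, 2.15 and 2.8 against 4.07, 2.93 and 4.31. Of the 12, 3 could be tested, Prg4 among them, and none of those was called by limma.

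The last fibrillar members are Col24a1 and Col27a1, minor fibrillar chains of bone and cartilage. Col24a1 (chr3:145292472-145552011, plus strand) stood at 3.82, 4.69 and 2.83 FPKM in wild-type and at 0.384, 0.350 and 0.424 in Cbx2-/- marrow. That is a 9.8-fold lower mean, and a smaller -1.77 ± 0.17 (SE) on the log2(FPKM + 1) scale, which understates the change of low genes (limma adjusted p = 0.00104). Col24a1 was under 1 FPKM in every Cbx2-/- library, so it met the filter for testing through the wild-type libraries alone. With no filter on low values its limma adjusted p was 0.00433. Col27a1 was the 1 fibrillar chain that did not pass, at 1.58, 2.44 and 1.59 FPKM against 1.18, 0.800 and 2.04. Its groups overlapped, with a difference of -0.31 ± 0.22 (SE), a 95% interval of -0.83 to 0.20 and a limma adjusted p of 0.376. In all, 10 of 11 fibrillar chains were called lower, Col24a1 among them, beside 8.31% of all tested genes. The class median was -2.62, beside 0.0159 over all tested genes.

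**Figure D2:**
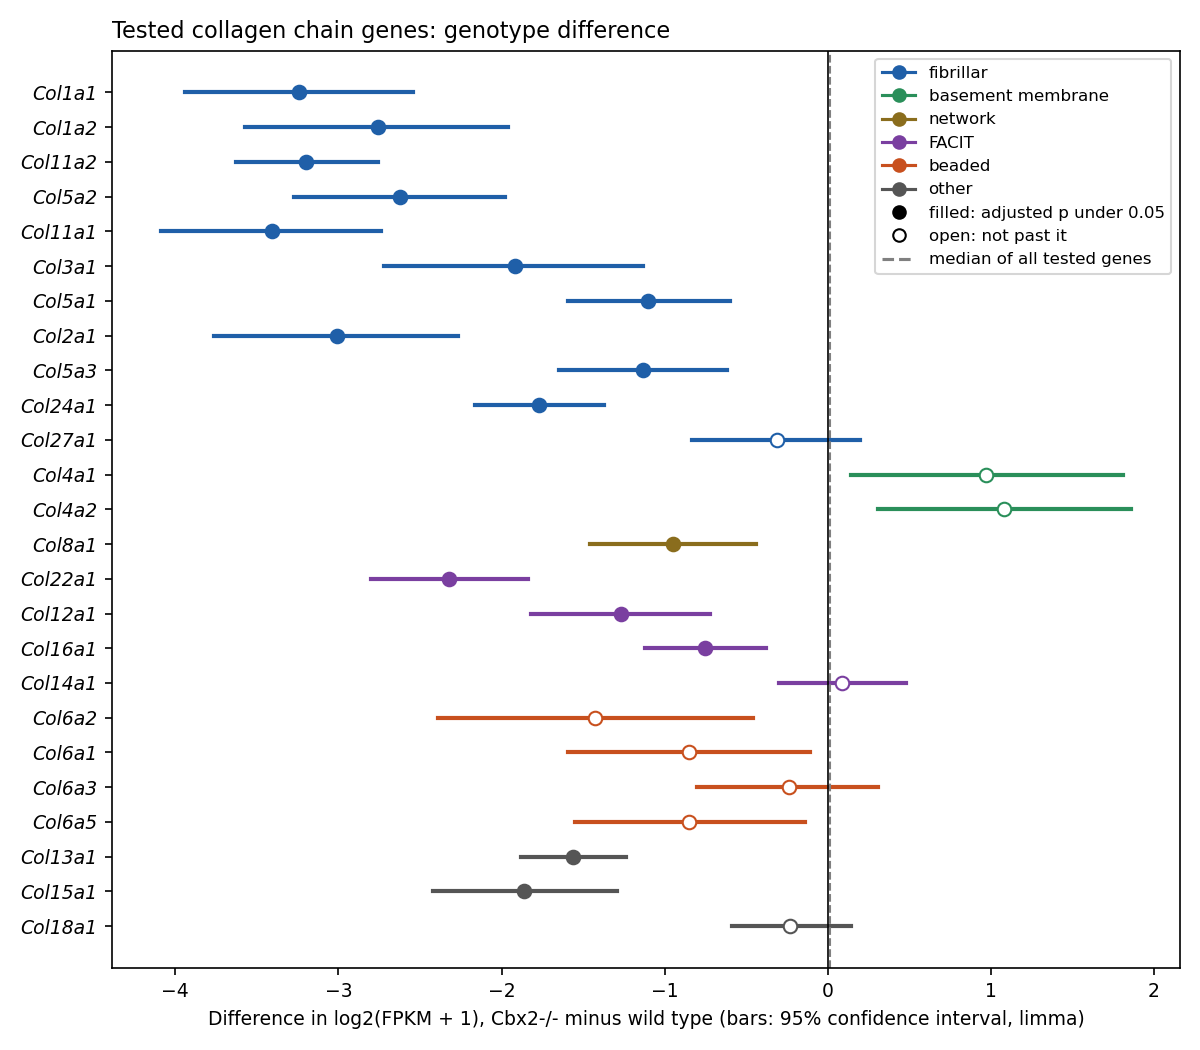
Difference in log2(FPKM + 1), Cbx2-/- minus wild type, for the 25 tested collagen genes, with 95% confidence intervals from limma, filled where the adjusted p is under 0.05, and a dashed line at the median of all tested genes (0.0159). Fibrillar chains reach -3.41 (Col11a1), and the open points of Col4a1 and Col4a2 lie at 0.97 and 1.08.

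Promoter sequence was read for the genes that fell, as members that moved together. RefSeq windows on GRCm38.p6, from 250 bases before to 50 after the start of a gene, were found for 35 of the 44 collagen genes and for 11 of the 16 that fell. The 250 bases before the start are shown for the 4 of these with the largest fall on the log2(FPKM + 1) scale whose window touches no annotated exon. Capitals mark the letters TATAAA or CCAAT, or else GGGCGG, on either strand, motifs of core promoters and of common promoter-binding factors.
Col11a1 (chr3:114030290-114030539, plus strand): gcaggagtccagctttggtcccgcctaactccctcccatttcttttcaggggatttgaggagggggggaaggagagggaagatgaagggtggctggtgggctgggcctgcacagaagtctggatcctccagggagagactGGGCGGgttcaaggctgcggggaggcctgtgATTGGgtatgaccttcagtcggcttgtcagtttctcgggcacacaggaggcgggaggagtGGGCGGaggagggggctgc
Col11a2 (chr17:34038888-34039137, plus strand): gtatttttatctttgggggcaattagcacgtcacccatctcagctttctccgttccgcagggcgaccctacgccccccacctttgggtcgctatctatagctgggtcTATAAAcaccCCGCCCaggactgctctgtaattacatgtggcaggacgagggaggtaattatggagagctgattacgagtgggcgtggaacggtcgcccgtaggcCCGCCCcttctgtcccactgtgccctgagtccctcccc
Col3a1 (chr1:45311288-45311537, plus strand): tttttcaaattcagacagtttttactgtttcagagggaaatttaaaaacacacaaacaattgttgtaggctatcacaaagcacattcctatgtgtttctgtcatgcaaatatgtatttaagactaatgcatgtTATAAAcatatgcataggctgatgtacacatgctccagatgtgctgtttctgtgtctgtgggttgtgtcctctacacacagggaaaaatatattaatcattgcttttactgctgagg
Col15a1 (chr4:47207762-47208011, plus strand): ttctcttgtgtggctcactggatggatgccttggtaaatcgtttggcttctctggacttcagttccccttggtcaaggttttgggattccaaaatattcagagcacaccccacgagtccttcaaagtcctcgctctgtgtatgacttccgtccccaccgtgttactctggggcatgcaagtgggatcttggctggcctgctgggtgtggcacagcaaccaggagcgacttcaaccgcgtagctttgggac
None of the 3 motifs is in all 4 stretches. Col11a1 has CCAAT (as its reverse complement) 79 bases before the start and GGGCGG at 110 and 19 bases. Col11a2 has TATAAA at 143 bases and GGGCGG, as its reverse complement CCGCCC, at 133 and 38 bases. Col3a1 has TATAAA at 117 bases, and Col15a1 has none of the 3. The RefSeq starts of Col11a2 and Col15a1 lie upstream of the GENCODE starts that their positions are given by.

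Over the whole 300-base windows, TATAAA was in 3 of the 11 genes that fell, 5 of 35 collagen genes and 13.6% of 32851 windows. CCAAT was in 4 of the 11, 13 of the 35 and 37.4% of windows, and GGGCGG in 7 of the 11, 22 of the 35 and 35.7%. ACCACA, a core of the sites that RUNX proteins bind, was in 1 of the 11 (Col8a1), 3 of the 35 and 16.8% of windows. Both strands were searched for each of the 4, and no motif contains another. A collagen gene counted if any of its windows had the motif, whereas the percentages are over single windows. Col6a2, Col9a1 and Col18a1 had more than 1 window, and each of the 11 genes that fell had a single window. A match here describes letters and not binding.

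Basement membrane chains stood higher in Cbx2-/- marrow, without passing the test. Col4a1 (chr8:11198423-11312826, minus strand) and Col4a2 (chr8:11312805-11449287, plus strand) encode the α1 and α2 chains that form the common type IV molecule of vessel basement membranes. The pair is read in opposite directions, and their annotated 5′ ends overlap by 22 bases. Their RefSeq promoter windows overlap over 78 bases (chr8:11312777-11312854), through the bases after each start. Shown are 30 bases from the CCAAT nearest before the Col4a2 start, with that motif in capitals, which lie after the Col4a1 start on the other strand.
Col4a2 (chr8:11312773-11312802, plus strand): CCAATttgttggcgctgccccctcccctcg
That CCAAT begins 32 bases before the Col4a2 start, at 11312773. Most of it lies outside the 78 bases that the windows share, which start at 11312777.

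Col4a1 stood at 16.7, 20.2 and 17.4 FPKM in wild-type and 26.4, 25.6 and 70.5 in Cbx2-/- marrow. Every Cbx2-/- library was above every wild-type library, but replicate 3 was far above the other two. The difference was 0.97 ± 0.36 (SE), with a 95% interval of 0.14 to 1.81 and a limma adjusted p of 0.106, so it did not pass. Without Cbx2-/- replicate 3 it was 0.50, with a limma adjusted p of 0.0165, and without Cbx2-/- replicates 1 and 2 it was 1.91. The set without replicate 3 passed where the full set did not. In that set 17.2% of all tested genes were higher, beside 8.8% with all libraries.

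Col4a2 followed it at 11.7, 15 and 11.8 FPKM against 21.6, 19.8 and 51.2. Its difference was 1.08 ± 0.33 (SE), with a 95% interval of 0.31 to 1.86 and a limma adjusted p of 0.0623. Without Cbx2-/- replicate 3 it was 0.66 (limma adjusted p = 0.00929), without replicate 2 it was 1.32 (0.0352), and without replicates 1 and 2 it was 1.93. Of all tested genes, 17.2% were higher without replicate 3 and 7.87% without replicate 2. The other 4 type IV chains, Col4a3 to Col4a6, which belong to the membranes of kidney and a few other tissues, reached at most 0.0403, 0.0254, 0.0783 and 0.0398 FPKM. Endothelial markers moved with the pair: of 12 markers tested, 8 were higher and none was lower by limma. Among all tested genes, 8.8% were higher and 8.31% lower. The 12 markers summed to 148 to 156 FPKM in wild-type and 289 to 332 in Cbx2-/- marrow. Their part in the type IV values was not tested. The endothelial sums of Cbx2-/- replicates 1 and 3 were 322 and 332 FPKM, and their Col4a1 levels were 26.4 and 70.5. Single markers, named after their values were seen, differed within these sums. In Cbx2-/- replicates 1, 2 and 3, Emcn was at 16.7, 14.7 and 34.3 FPKM and Pecam1 at 23.6, 19.1 and 36.3. Kdr, at 18, 16.4 and 13.8, and Stab2, at 20.2, 19.6 and 18.3, were lowest in replicate 3.

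Of the network collagens, Col8a1, a chain found in vessel walls, was at 3.70, 5.23 and 3.94 FPKM in wild-type and 0.982, 2.22 and 2.16 in Cbx2-/- marrow. It fell 2.4-fold, at -0.95 ± 0.22 (SE), with a limma adjusted p of 0.0239 and no overlap. Of the 16 calls, this one was lost under the most alternatives run. In limma it was lost without wild-type replicate 1 (adjusted p = 0.0633), 2 (0.0968) or 3 (0.0752), without Cbx2-/- replicate 1 (0.0524), with no filter on low values (0.0559) and with FPKM rescaled to exclude haemoglobin genes (0.0511). Col8a2 and Col10a1 reached at most 0.49 and 0.673 FPKM.

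FACIT chains were called lower in 3 of the 4 tested cases, beside 8.31% of all tested genes, with a median of -1.01. Col22a1 (chr15:71795795-72034227, minus strand), a chain of tissue junctions such as that of muscle and tendon, fell most. It stood at 13.9, 16.5 and 12.8 FPKM in wild-type and 1.28, 2.76 and 2.37 in Cbx2-/- marrow, 6.74-fold lower, at -2.32 ± 0.21 (SE) and a limma adjusted p of 0.000728. The 13 muscle markers summed to 477, 532 and 15.1 FPKM in the same 3 Cbx2-/- libraries, beside 24.8 to 37.6 in wild-type marrow. Their part in the Col22a1 values was not tested. The 4 tendon markers summed to 1.41 to 2.37 FPKM in wild-type and 1.29 to 2.09 in Cbx2-/- marrow, and none reached the level for testing.

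Col12a1, which binds type I fibrils in dense connective tissue and periosteum, was at 9.75, 8.78 and 6.23 FPKM against 1.81, 2.87 and 3.99. It was 2.86-fold lower, at -1.27 ± 0.24 (SE) and a limma adjusted p of 0.0111, a call lost without wild-type replicate 1 (0.0547) or 2 (0.0533). Col16a1, another fibril-associated chain, was at 3.26, 4.53 and 3.87 FPKM against 1.84, 2.34 and 1.55, or 2.04-fold lower. Its difference was -0.75 ± 0.16 (SE) with a limma adjusted p of 0.0183, lost without wild-type replicate 2 (0.0815) or 3 (0.0726) or Cbx2-/- replicate 1 (0.064). Both separated the genotypes in every library.

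Col14a1, a FACIT chain of skin and tendon, was near the floor in both genotypes at 0.576, 1.10 and 1.06 FPKM against 1.09, 0.828 and 1.15. Its difference of 0.09 ± 0.17 (SE) had a 95% interval of -0.30 to 0.48 and a limma adjusted p of 0.762. Col20a1 was expressed but not tested, at 0.418, 0.417 and 1.01 FPKM against 0.609, 0.719 and 1.79. Col19a1 reached at most 0.0304 FPKM.

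Beaded collagen VI did not pass for any chain, although 4 of 4 tested members had lower means. The class median was -0.85, beside 0.0159 over all tested genes. Col6a1 and Col6a2, which lie 85161 bases apart on chromosome 10 and encode the α1 and α2 chains, were held up by Cbx2-/- replicate 2. Col6a1 was at 25.1, 36.1 and 22.8 FPKM in wild-type and 10.8, 25.3 and 11.7 in Cbx2-/- marrow, and Cbx2-/- replicate 2 overlapped the wild-type range. The difference was -0.85 ± 0.32 (SE), with a 95% interval of -1.59 to -0.11 and a limma adjusted p of 0.111. Without that library it was -1.22, with an adjusted p of 0.0119.

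Col6a2 stood at 29.7, 38.9 and 26.8 FPKM against 7.47, 24.4 and 7.11, with no overlap. At -1.43 ± 0.42 (SE) and a 95% interval of -2.39 to -0.46, its limma adjusted p was 0.0524. It passed without Cbx2-/- replicate 2 (-1.97, adjusted p = 0.00164), with median-of-ratios scaling (0.0438) and with FPKM rescaled to exclude haemoglobin genes (0.0322). Replicate 2 had the highest sum of muscle markers, 532 FPKM, and of 9 marrow stroma markers, 1171 FPKM beside 446 to 746 in the other libraries. Most of that stroma sum came from 1 gene, Cxcl12, named after its values were seen, at 873 FPKM. Cxcl12 stood at 439 and 313 FPKM in Cbx2-/- replicates 1 and 3. In Cbx2-/- replicate 1 the muscle sum was 477 FPKM and Col6a2 was at 7.47 FPKM. The part of either list in the collagen VI values was not tested.

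Col6a3, the long α3 chain, was at 5.65, 6.54 and 4.44 FPKM in wild-type and 4.04, 6.77 and 3.19 in Cbx2-/- marrow. Its difference of -0.24 ± 0.24 (SE) had a 95% interval of -0.80 to 0.31 and a limma adjusted p of 0.542. Col6a5, which encodes a chain that can take the place of α3, split the Cbx2-/- group. It was at 1.12, 1.41 and 1.59 FPKM in wild-type, at 0.0137 and 0.00772 in Cbx2-/- replicates 1 and 2, and at 1.23 in replicate 3. With all libraries the difference was -0.85 ± 0.31 (SE), with a 95% interval of -1.55 to -0.14 and a limma adjusted p of 0.0983. Without replicate 3 it was -1.23, with an adjusted p of 0.000982. The relatives Col6a4 and Col6a6 reached at most 0.737 and 0.0472 FPKM.

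Among the remaining members, Col13a1 and Col15a1 fell. Col13a1, which encodes a transmembrane collagen of cell adhesion sites, was even within each genotype, at 6.59, 6.78 and 5.70 FPKM against 1.50, 1.76 and 1.23. It was 4.25-fold lower, at -1.56 ± 0.14 (SE), with a limma adjusted p of 0.000762. Col15a1 (chr4:47208161-47313167, plus strand), a collagen at the edge of vessel and muscle basement membranes, was at 5.37, 5.97 and 3.65 FPKM against 0.375, 1.28 and 0.387. It was 7.34-fold lower, at -1.86 ± 0.24 (SE) and a limma adjusted p of 0.00309.

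Its relative Col18a1, the source of endostatin in vessel basement membranes, did not pass, at 2.80, 2.42 and 1.92 FPKM against 1.80, 2.27 and 1.60. The difference was -0.23 ± 0.16 (SE), with a 95% interval of -0.59 to 0.14 and a limma adjusted p of 0.376. Thus of the basement membrane zone chains that were expressed, Col15a1 was lower, Col18a1 overlapped, and Col4a1 and Col4a2 stood higher without passing. The others of this group, Col7a1, Col17a1, Col23a1, Col25a1, Col26a1 and Col28a1, reached at most 0.408, 0.0804, 0.464, 0.488, 0.321 and 0.178 FPKM. The level of 1 FPKM fell between the highest values of Col14a1 (1.15), Col6a5 (1.59) and Col20a1 (1.79) above it and Col6a4 (0.737), Col10a1 (0.673) and Col9a2 (0.551) below it.

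Summed over all 44 members, collagen FPKM was 9359, 14049 and 8235 in wild-type and 1012, 1401 and 1819.6 in Cbx2-/- marrow, 7.48-fold lower. It made up 1.3%, 2.12% and 1.18% of the summed FPKM of the wild-type libraries and 0.142%, 0.189% and 0.303% of the Cbx2-/- libraries. Type I chains gave 94.4%, 95.3% and 94.6% of collagen FPKM in wild-type and 86.9%, 86.4% and 87.2% in Cbx2-/- marrow. The other fibrillar chains together were 6.36-fold lower, at 382, 486 and 320.1 FPKM against 49, 68.9 and 69.1. Their share of collagen FPKM overlapped, at 3.46% to 4.08% and 3.8% to 4.92%.

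Basement membrane chains made up 0.304%, 0.251% and 0.355% of collagen FPKM in wild-type and 4.76%, 3.24% and 6.7% in Cbx2-/- marrow, with sums of 28.4, 35.3 and 29.2 FPKM against 48.1, 45.4 and 122. FACIT sums were 28.6, 32.6 and 25.6 against 7.42, 10.3 and 11.5, or 2.97-fold lower. Beaded sums, at 61.7, 83.3 and 56 against 22.3, 56.5 and 24, overlapped between the genotypes. An exact two-sided permutation test gave 0.1 for 8 of the 9 sums tested, the smallest p that 3 against 3 allows, and 0.2 for the beaded class (0.113 and 0.2 after Benjamini-Hochberg adjustment), so no sum could pass 0.05.

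Ratios between chains of 1 library do not depend on how the library is scaled, and 8 of 13 preset pairs had both chains expressed. The type I ratio, Col1a1 to Col1a2, was 1.45, 1.6 and 1.59 in wild-type and 1.25, 1.25 and 0.875 in Cbx2-/- marrow, so the α1 transcript was lower relative to α2 in each Cbx2-/- library. Col5a1 to Col5a2 differed the most, at 0.383, 0.404 and 0.446 against 1.55, 1.7 and 0.697, 2.99-fold higher in Cbx2-/- marrow. Cbx2-/- replicate 3 lay nearest the wild-type range. Without that library the log2 difference of 1.58 became 1.99, and without replicates 1 and 2 it became 0.77.

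Col3a1 to Col1a1, the ratio of thin-fibril to bone-type collagen, was 0.00705, 0.00626 and 0.00494 in wild-type and 0.0109, 0.0188 and 0.0126 in Cbx2-/- marrow, 2.28-fold higher. Col5a2 to Col1a1 was 1.42-fold higher, at 0.014, 0.0112 and 0.0118 against 0.0159, 0.0154 and 0.0219. Within type VI, Col6a1 to Col6a2 was 0.848, 0.93 and 0.851 against 1.44, 1.04 and 1.65, and Col6a3 to Col6a1 was 0.225, 0.181 and 0.195 against 0.374, 0.268 and 0.273. These 6 ratios did not overlap between the genotypes. Each had an exact two-sided permutation p of 0.1, the smallest possible here, and 0.133 after Benjamini-Hochberg adjustment over the 8 pairs.

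The ratios of the other 2 pairs overlapped between the genotypes. Col4a1 to Col4a2 was 1.43, 1.35 and 1.48 in wild-type and 1.22, 1.29 and 1.38 in Cbx2-/- marrow (exact permutation p = 0.2). Although both chains reached their highest level in Cbx2-/- replicate 3, their ratio there was inside the wild-type range. Col11a1 to Col11a2 was 0.499, 0.591 and 0.429 against 0.367, 0.319 and 0.521 (exact permutation p = 0.3).

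**Figure D3:**
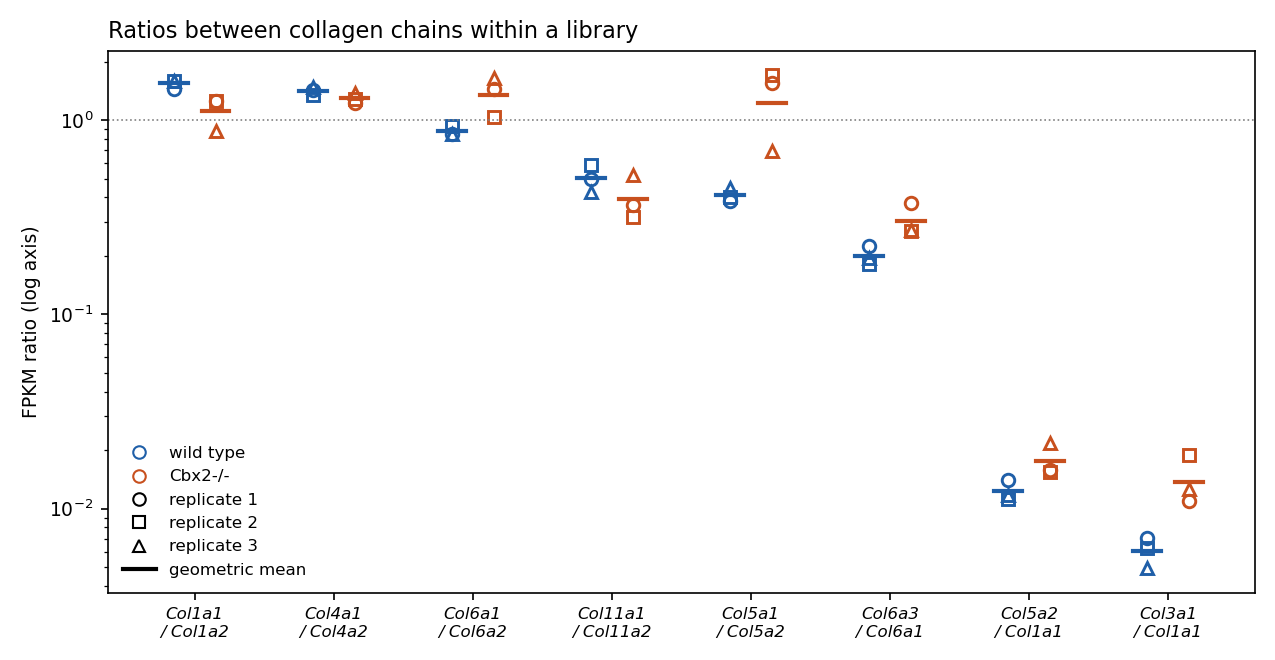
FPKM ratio of 2 collagen chains within a library, on a log axis, for 8 chain pairs (blue wild type, orange Cbx2-/-; symbols are replicates and bars geometric means). Col5a1/Col5a2 goes from 0.383 to 0.446 in wild type to 0.697 to 1.7 in Cbx2-/- marrow, while Col4a1/Col4a2 overlaps.

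Genes that make and assemble collagen were read as a list of 30, of which 26 were tested. In limma, 11 were lower, none was higher and 15 did not pass, beside 8.31% lower and 8.8% higher among all tested genes. The median of the list was -0.50, beside 0.0159 for all tested genes. Named here are the 6 with the lowest adjusted p. Plod2, which hydroxylates lysines for cross-links of the collagen ends, stood at 17.1, 27.7 and 15.7 FPKM against 2.10, 2.67 and 3.67, or 7.17-fold lower (limma adjusted p = 0.00111). P4ha2, a subunit of the prolyl 4-hydroxylase that stabilises the helix, was at 7.70, 11.2 and 7.47 against 1.55, 2.32 and 2.96, or 3.86-fold lower (0.00327). Serpinh1, the collagen chaperone HSP47, was at 227, 274 and 202 against 37.4, 82.7 and 32.4, or 4.62-fold lower (0.00478).

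P3h1, a prolyl 3-hydroxylase, and P3h4, its relative in a lysine-modifying complex of the endoplasmic reticulum, were both lower. P3h1 was at 15.5, 14.5 and 14.4 FPKM against 7.20, 7.53 and 5.55, or 2.19-fold lower (limma adjusted p = 0.00377). P3h4 was at 12.0, 9.30 and 8.98 against 3.64, 4.87 and 4.60, or 2.31-fold lower (0.00549). Bmp1, the proteinase that trims the carboxyl propeptide of fibrillar chains, was at 31.3, 32.3 and 27.6 against 9.61, 14.5 and 13.0, or 2.45-fold lower (0.00387). These 6 calls held in limma with each library left out in turn.

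A list of 16 collagen receptors and enzymes of collagen breakdown had 4 lower, 2 higher and 10 not called in limma, with a median of -0.39. Among all tested genes, 8.31% were lower and 8.8% higher, so the count of higher members was near that share. Mmp2, a gelatinase of stromal cells, was at 58.1, 65.9 and 43.2 FPKM against 12.3, 14.5 and 29.8, or 2.95-fold lower (limma adjusted p = 0.014). Mmp9, the gelatinase of neutrophils and osteoclasts, was at 203, 207 and 193 against 358, 317 and 358, or 1.71-fold higher (0.0192). Itga11, a subunit of a receptor for fibrillar collagen, was at 2.29, 2.33 and 2.67 against 0.794, 0.784 and 1.41, or 2.44-fold lower (0.0152). Mrc2, an uptake receptor for collagen fragments, was at 10.5, 12.4 and 9.04 against 4.86, 4.74 and 7.22, or 1.9-fold lower (0.0211).
None of these 4 calls held with every library left out in turn: that on Mmp2 was lost without wild-type replicate 1 or 2, that on Mrc2 without wild-type replicate 1 or 2 or Cbx2-/- replicate 1, and those on Mmp9 and Itga11 without any of the wild-type libraries or Cbx2-/- replicate 1.

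Some markers of cells that make collagen were lower as well. Of 17 osteoblast and osteocyte markers, 8 were lower, none higher and 9 not called by limma, beside 8.31% lower and 8.8% higher among all tested genes, and their summed FPKM was 2545, 3309 and 2390.5 in wild-type and 1054, 843 and 2033 in Cbx2-/- marrow. Spp1, which encodes osteopontin and is named after its values were seen, gave 1646 of the 2033 FPKM in Cbx2-/- replicate 3. It was not called (limma adjusted p = 0.225), at 419, 615 and 533 FPKM in wild-type and 843, 515 and 1646 in Cbx2-/- marrow. The median log2 difference of the 17 markers was -1.10. Single differences ran from -3.84 (Bglap2) and -3.81 (Bglap) to 0.79 (Spp1), with Mepe (0.14) and Cdh11 (0.05) also above 0. These members too were picked with the values known. Bglap stood at 1191, 1523 and 1052 FPKM against 62.9, 129 and 82.6 (limma adjusted p = 0.000459). The sums thus do not stand for each marker. Of 16 fibroblast markers, 12 were tested, of which 3 were lower, 1 was higher and 8 were not called, with sums of 291 to 468 FPKM in wild-type and 131 to 208 in Cbx2-/- marrow; Dpt, Mfap5, Mfap4 and Tnxb stayed under 1 FPKM. The part of either list in the collagen values was not tested.

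Other marrow cell lists did not fall with them. The counts below stand beside 8.31% lower and 8.8% higher among all tested genes. Of 9 marrow stroma markers, 6 were higher and none lower by limma, with sums of 446 to 569.6 FPKM in wild-type and 722 to 1171 in Cbx2-/- marrow. Cxcl12, which was not called (limma adjusted p = 0.282), gave 873 of the 1171 FPKM. Adipocyte markers were higher in 10 of 11 tested, with sums of 240.0 to 466 against 2142 to 2773 FPKM. Of 12 haematopoietic markers, 3 were lower and none higher, and the sums overlapped at 109495 to 142014 against 110888 to 152003 FPKM.

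**Figure D4:**
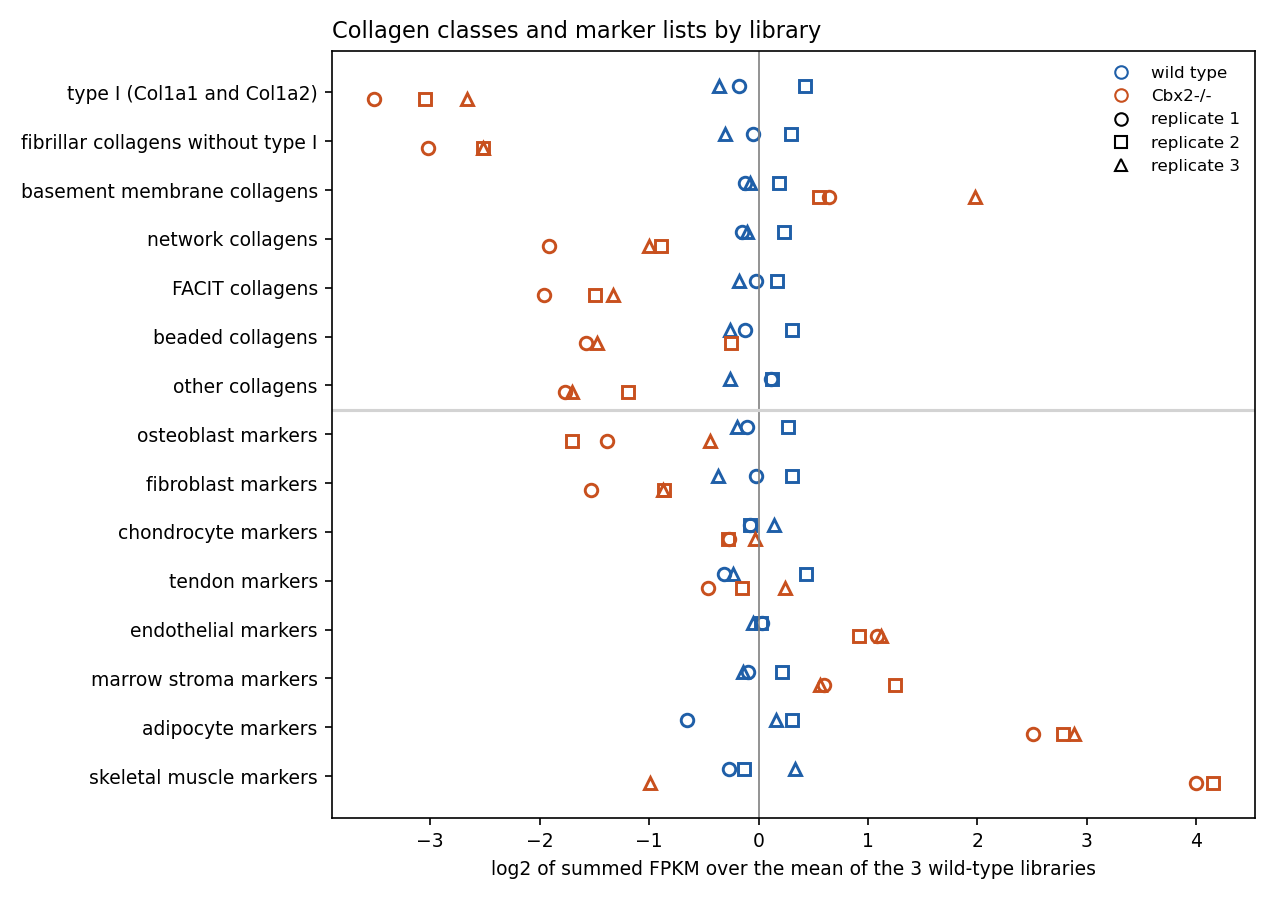
Summed FPKM of each collagen class and marker list per library, as log2 of its ratio to the wild-type mean (blue wild type, orange Cbx2-/-; symbols are replicates). Type I sums of the Cbx2-/- libraries lie at -3.51, -3.05 and -2.66, osteoblast markers at -1.38, -1.70 and -0.44, and muscle markers at 4.00, 4.15 and -0.99.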

How the data were processed

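RNA from the marrow of 6 mice was sequenced from stranded poly(A)-selected libraries as 50-base single-end reads, per the labels' protocols. Build mm10, Cufflinks 2.2.1, TopHat2 2.1.0 and FastQC 0.11.5 are listed per the submitters' processing notes, without roles or settings. The authors deposited 1 table of FPKM values for 22838 genes in 6 libraries, and these values were used as they stand. FPKM is a relative measure, so a gene's value falls when others take more of the reads. The number of reads is not stated. The spacing of the lowest values, over 877 to 1134 genes, gave relative depths of 0.91 to 1.20 with wild-type replicate 1 as the unit, an approximation since Cufflinks can split reads. Whether strand was used in quantification is not stated, so the values of 13 collagen genes whose exons share bases with another annotated gene are uncertain (among the tested, Col3a1, Col4a1, Col4a2, Col5a1, Col15a1 and Col22a1).

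Values were analysed as log2(FPKM + 1), and the 12006 genes that reached 1 FPKM in 3 or more of the 6 libraries were tested. The test was the moderated two-sided one of limma 3.58.1 (R 4.3.3), with its mean-variance trend and neither block nor covariate. P-values were adjusted by Benjamini-Hochberg across the 12006 genes, and 0.05 was the threshold. Per the labels the libraries come from separate animals. Folds are ratios of mean FPKM, except those of chain ratios, which come from mean log2 values; spreads are SD over 3 libraries unless named SE. Sums and chain ratios were compared on the log2 scale by exact permutation. The fit was tested on simulated data. Every collagen gene at 1 FPKM or more in a library is named with its values, the others by their highest value. Of the biosynthesis list the 6 members with the lowest adjusted p are named, and of the receptor and breakdown list the 4. The members and lists were chosen with earlier results of these data known. Positions are from GENCODE vM21, matched for 44 of 44 genes, and promoter windows from RefSeq on GRCm38.p6, the same build as mm10. Alternatives covered pseudocounts, filters, scalings, limma settings, covariates, a replicate block and libraries left out.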

Additional observations from a re-analysis of the deposited data

How the results depend on the processing

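The count of collagen genes lower in Cbx2-/- marrow was 16 and lay between 11 and 20 under all alternatives run, with 11 to 18 when 1 library was left out. The share of all tested genes called lower moved too, from 8.31% in the main analysis. It was 22.4% with array quality weights (count 20), 22.3% with the muscle covariate (count 18) and 3.98% without wild-type replicate 2 (count 11). The 11 genes that kept their limma call without each library in turn were Col1a1, Col1a2, Col2a1, Col3a1, Col5a2, Col11a1, Col11a2, Col13a1, Col15a1, Col22a1 and Col24a1. Of all tested genes, 3.96% to 14.3% were lower in a fit with 1 library left out. The share that kept a call in every such fit was not computed. The count of higher genes, 0 in the main analysis, was 2 with array quality weights, 2 with the muscle marker level as a covariate and 2 without Cbx2-/- replicates 1 and 2, and ranged from 0 to 2 when 1 library was left out. The genes behind these counts were Col4a1 and Col4a2, and Col4a2 alone without Cbx2-/- replicate 2. Among all tested genes, 27.3%, 17.8% and 17% were higher in the first 3 of these settings, beside 8.8% in the main analysis. Without Cbx2-/- replicate 3 the share of higher genes was 17.2%, and without replicate 2 it was 7.87%. The cause was not tested. With no filter on low values, 17 of 44 genes were lower, beside 5.03% of all genes, Col8a1 was lost, and Col9a1 and Col10a1 were added. Over all tested genes, limma called 998 lower and 1057 higher, and with FPKM rescaled without haemoglobin genes 986 lower and 596 higher.

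The direction turned for Col14a1 without wild-type replicate 1 (-0.04, the low end of a range that reached 0.17 with other libraries left out), for Col27a1 with the muscle covariate (0.05) and without Cbx2-/- replicates 1 and 2 (0.10), and for the Col11a1 to Col11a2 ratio without the same libraries (0.05 in log2). None of these was called in the main analysis, and the cause was not tested. With 1 Cbx2-/- library left, it is assumed to vary like the wild-type libraries.

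With the replicate number as a block, 18 collagen genes were lower and 0 higher in limma, Col6a1 (adjusted p = 0.038) and Col6a2 (0.0239) being added. Of all tested genes, 6.11% were then lower and 5.28% higher. The pairing has no basis in the labels, and the deviations of same-numbered libraries correlated at 0.19, -0.18 and -0.1. Wild-type replicates 2 and 3 did not correlate best with their own number.

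The design of 3 animals a genotype in 1 tissue limits these results. The group weights differ, cell types were not separated, and the number of reads behind a value is not known.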
